A study of Mus musculus with 12 samples.

Results

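The genes described here encode the proteins of the mitochondrial ribosome. They were taken by name, as every gene whose symbol is Mrpl or Mrps followed by a digit, which gave 78 of the 12212 gene symbols in the count files. Of these, 51 belong to the large subunit and 26 to the small subunit. Mrps36 is named as a small subunit protein but belongs to the alpha-ketoglutarate dehydrogenase complex, and it is counted with neither. Mrps18a and Mrps30 carry small subunit names and sit in the large subunit. By their family names 46 members descend from bacterial ribosomal proteins and 31 are found in mitochondrial ribosomes only.

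The mitochondrial ribosome translates the few messenger RNAs of the mitochondrial genome, which code for core parts of the respiratory complexes and of ATP synthase. All of its proteins are encoded in the nucleus, made in the cytosol and imported, while its ribosomal RNAs come from the mitochondrial genome. Germinal center B cells cycle between a dark zone, where they divide, and a light zone, where they compete for signals from T cells, and they are known to rely on oxidative metabolism.

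The mice were of the strain NZBWF1/J, an F1 hybrid of NZB and NZW that develops a lupus-like disease. Germinal center B cells were sorted from the spleen as dark zone or light zone cells, with 1000 cells per library, and the RNA of each library was amplified before sequencing. The 12 libraries form 4 groups of 3. Dark zone control and light zone control cells came from untreated mice. Dark zone treated and light zone treated cells came from mice given 6 doses each of CTLA4-Ig (200 ug per dose) and of an antibody to CD40L (250 ug per dose) over 2 weeks, starting at 18 weeks of age. CTLA4-Ig blocks the costimulatory ligands CD80 and CD86, and anti-CD40L blocks the T cell ligand of CD40, so the pair interrupts T cell help to B cells. The labels give no age for the control mice. The labels do not say whether a replicate is a separate mouse, so p-values measure only the spread between these libraries, which may be technical. In sorted bulk samples, fewer cells of one kind and less RNA per cell cannot be told apart.

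Promoter windows were looked up because members of the set were measured together at low levels in some libraries. Any part of these sequences in those levels was not tested. RefSeq windows of 300 bases on GRCm38.p6, from 250 bases before a transcript start to 50 after it, were at hand for 69 of the 78 members. The letters searched, on both strands, were GCGCANGCG for NRF1 (nuclear respiratory factor 1), CCGGAAG for the ETS family (which includes GABPA), AAGATGGC for YY1 and CACGTG for the E-box that MYC and related factors bind. The first 3 factors are known regulators of nuclear genes for mitochondria. In no member window did letters of different motifs overlap. The windows shown are those of Mrps11 and Mrpl42 with YY1 letters, of Mrps21 with NRF1 and ETS letters, of Mrpl12 with NRF1 letters, and of Mrps5, a member that was higher in each of 3 libraries that stood apart than in the other 9 and whose window held none of these letters. Capitals mark the motif letters, on either strand.
Mrps11 (chr7:78782881-78783180, plus strand): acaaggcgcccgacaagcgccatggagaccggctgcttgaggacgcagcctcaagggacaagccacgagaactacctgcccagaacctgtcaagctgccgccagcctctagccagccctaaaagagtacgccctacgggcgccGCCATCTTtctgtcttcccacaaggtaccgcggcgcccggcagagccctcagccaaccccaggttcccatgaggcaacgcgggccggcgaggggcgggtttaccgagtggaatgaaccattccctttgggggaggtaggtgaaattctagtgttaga
Mrpl42 (chr10:95501900-95502199, minus strand): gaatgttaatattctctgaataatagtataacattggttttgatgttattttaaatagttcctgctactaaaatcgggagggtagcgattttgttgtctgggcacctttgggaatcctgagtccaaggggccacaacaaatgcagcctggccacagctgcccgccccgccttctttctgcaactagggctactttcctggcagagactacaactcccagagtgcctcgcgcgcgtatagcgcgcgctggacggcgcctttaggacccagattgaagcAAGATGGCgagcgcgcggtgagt
Mrps21 (chr3:95871465-95871764, minus strand): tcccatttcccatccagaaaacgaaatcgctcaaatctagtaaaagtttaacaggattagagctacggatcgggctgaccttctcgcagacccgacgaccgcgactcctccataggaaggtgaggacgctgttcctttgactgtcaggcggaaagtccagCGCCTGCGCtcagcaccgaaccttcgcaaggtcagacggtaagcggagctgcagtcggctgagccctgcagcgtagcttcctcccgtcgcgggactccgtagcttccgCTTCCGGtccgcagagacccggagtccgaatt
Mrpl12 (chr11:120484387-120484686, plus strand): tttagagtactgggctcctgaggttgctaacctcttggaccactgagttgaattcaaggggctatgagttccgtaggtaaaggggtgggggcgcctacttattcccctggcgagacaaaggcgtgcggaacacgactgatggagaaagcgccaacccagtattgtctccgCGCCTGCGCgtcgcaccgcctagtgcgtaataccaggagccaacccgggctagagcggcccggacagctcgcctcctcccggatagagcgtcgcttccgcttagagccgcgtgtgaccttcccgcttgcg
Mrps5 (chr2:127587176-127587475, plus strand): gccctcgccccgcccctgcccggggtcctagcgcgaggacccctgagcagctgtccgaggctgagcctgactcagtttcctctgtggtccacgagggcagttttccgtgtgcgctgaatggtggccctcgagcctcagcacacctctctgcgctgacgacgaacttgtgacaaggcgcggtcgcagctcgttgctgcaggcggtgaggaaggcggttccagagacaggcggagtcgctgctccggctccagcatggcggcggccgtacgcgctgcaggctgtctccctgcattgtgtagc

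ETS letters were in the windows of 26 of 69 members (37.7%), against 20.8% of 9389 tested genes with a window and 9.93% of all 27025 genes with a window. NRF1 letters were in 16 members (23.2%, against 15.5% and 7.03%) and YY1 letters in 12 (17.4%, against 5.44% and 3.19%). E-box letters were in 5 members (7.25%, against 11.6% and 8.09%). At least 1 of the NRF1, ETS and YY1 motifs was in 44 members (63.8%), against 35.9% of tested genes and 17.8% of all genes with a window. These matches are a description of letters in a window, and do not show binding. Mrps11 and Mrpl46 lie head to head on chromosome 7, with RefSeq starts 42 bases apart, so the start of Mrpl46, on the minus strand, lies inside the Mrps11 window shown above. Of their 2 windows, only that of Mrps11 reaches the YY1 letters.

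Library totals ran from 16032746 to 26837714 counts, and every member had at least 1 count in every library. Levels below are CPM, read counts relative to the library's total after TMM scaling, which sets the bulk of genes equal between libraries. A value of 3 counts, taken as the floor, is 0.112 to 0.187 CPM before that scaling. The 3 libraries that stood apart from the other 9 were dark zone treated replicates 1 and 2 (columns S38 and S39) and light zone treated replicate 2 (column S37). Their TMM factors were 1.35 to 1.44, against 0.815 to 0.988 in the other 9, so TMM lowers their values relative to plain totals. For the counts and medians of the 6 comparisons both scalings are given, and other values are TMM-scaled unless plain totals are named. Germinal center B cell markers summed to 6357 to 7222 CPM in the 3 libraries and 6545 to 10683 in the 9. Single markers among them did not overlap. Fas (40.7 to 46.6 in the 3 and 138 to 260 in the 9) and Cd79a (1689 to 2125 and 2193 to 3278) were lower in the 3. S1pr2 (299 to 328 and 68.5 to 169) was higher, and the rest overlapped. Plasma cell markers summed to 1310.5 to 2411 CPM in the 3 and 6431 to 11545 in the 9, a sum made up mostly of Jchain (1109 to 2154 and 6206 to 11324), while the other 4 markers overlapped. Macrophage and myeloid markers summed to 346 to 561 CPM and 568 to 1161, mostly Cst3 (267 to 374 and 549.9 to 1134), although 5 of these 10 markers (Lyz2, C1qa, C1qb, C1qc and Csf1r) were above all 9 libraries in each of the 3. T cell markers summed to 136 to 302 CPM and 86.0 to 224, mostly Lck (123 to 249 and 80.4 to 206). Of the 8 measured markers 5 were above all 9 libraries in each of the 3, at 0.916 to 10.6 CPM. Dark zone markers summed to 536 to 947 CPM and 561 to 1958, with Gcsam (89.4 to 256 and 306 to 852) lower in the 3 and the rest overlapping. Light zone markers summed to 478 to 1520 CPM and 298 to 1517, and each of them overlapped. Neutrophil markers summed to 1.06 to 55.1 CPM and 0 to 2.17, with S100a8 and Camp at 0 in all 9. The part of these differences in the results on the members was not tested. In sentences that list 3 values per group, they stand in the order of replicates 1 to 3, so the first 2 values of treated dark zone cells and the middle value of treated light zone cells are those of the 3 libraries.

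Levels of the members spanned a wide range. Per kilobase of coding length and averaged over the 12 libraries, Mrpl33 was highest at 2721 CPM per kilobase, followed by Mrps21 (2446), Mrps14 (2147), Mrpl42 (2052) and Mrps33 (1793). Mrpl33, Mrps21 and Mrps14 descend from bacterial ribosomal proteins, and Mrpl42 and Mrps33 are specific to mitochondria. The lowest were Mrps5 (12.8 CPM per kilobase), Mrps2 (20.6), Mrps27 (24.7), Mrps30 (25.9) and Mrpl38 (27.2). The proteins of a ribosome are present in about equal copy number, which these message levels were not. Over the 78 members, coding length and mean control CPM correlated at a Spearman rho of -0.70, as a description across genes. In all 12 libraries 63 of the 78 members were at 10 CPM or more.

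The 5 members of highest level per kilobase shared a pattern over the libraries. Mrpl42 was at 1096, 1249 and 1096 CPM in untreated dark zone cells, 114, 158 and 742 after treatment, 1499.9, 1098 and 1193 in untreated light zone cells and 1092, 124 and 1027 after treatment. Mrps33 was at 759.8, 829 and 751 CPM in untreated dark zone cells, 85.4, 84.1 and 494 after treatment, 1015, 814 and 737 in untreated light zone cells and 694, 76.9 and 501 after treatment. Mrps14 was at 859, 1427 and 944 CPM in untreated dark zone cells, 167, 183 and 805 after treatment, 1145, 1240.2 and 990.2 in untreated light zone cells and 929.9, 133 and 1069 after treatment. In each of these members the 3 libraries that stood apart lay far below the other 9, and dark zone treated replicate 3 was below the 3 dark zone controls. Mrps21 was at 789, 1016 and 659 CPM in untreated dark zone cells, 154, 167 and 614 after treatment, 1108, 775 and 681 in untreated light zone cells and 785, 131 and 781 after treatment. Mrpl33 was at 655, 977 and 615 CPM in untreated dark zone cells, 118, 107 and 563 after treatment, 799.6, 653 and 626 in untreated light zone cells and 595, 91.7 and 568 after treatment. Mrpl33 was at 91.7 to 118 CPM in the 3 libraries and 563 to 977 in the 9, with no overlap.

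Summed over the 78 members, dark zone control libraries held 17266, 21346 and 15320 CPM, dark zone treated libraries 5973, 6335 and 15023, light zone control libraries 19625, 20566 and 17355, and those of treated light zone cells 18532, 5613 and 17294. The 3 libraries held the lowest sums, and the other 3 treated libraries within or just under the range of the controls. Group means were 17977 ± 3075 CPM in dark zone control, 9110 ± 5124 in dark zone treated, 19182 ± 1651 in untreated light zone cells and 13813 ± 7128 in treated ones (SD, n = 3 each). Without the 3 libraries, the dark zone treated group was 1 library at 15023 CPM and the light zone treated group 17913 ± 876 (SD, n = 2). As a share of all counts, which no scaling touches, members made up 0.809% to 0.856% in the 3 libraries and 1.41% to 1.77% in the 9.

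**Figure D1:**
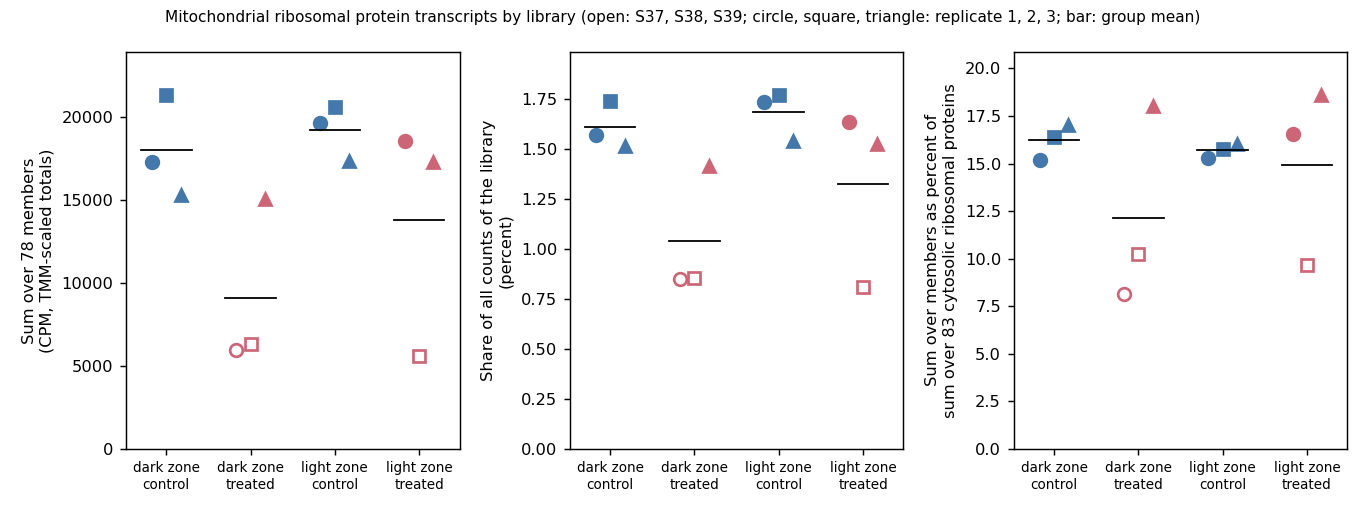
Each point is 1 library, grouped by zone and treatment. The panels show the summed CPM of the 78 members, their share of all counts in percent, and their sum as a percent of the cytosolic ribosomal protein sum. Open points are the libraries S37, S38 and S39, at 5613 to 6335 CPM, and bars are group means of 3 libraries.

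The composition of the sum differed as well. Large subunit members summed to 2.52 to 2.64 times the small subunit members in the 3 libraries and to 1.90 to 2.29 times in the 9. The 5 members of highest CPM (Mrpl42, Mrps14, Mrpl18, Mrps21 and Mrps33) held 13.8% to 15.7% of the sum in the 3 and 23.3% to 28.4% in the 9. Against the 83 cytosolic ribosomal proteins, members summed to 8.14% to 10.2% in the 3 libraries and 15.2% to 18.6% in the 9. Against 76 nuclear-encoded respiratory chain and ATP synthase subunits, they summed to 28.1% to 31.8% in the 3 and 27.6% to 34.5% in the 9. The ratio to the respiratory chain therefore overlapped between the 3 libraries and the 9, while the ratio to the cytosolic ribosome did not.

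In 49 of the 78 members all 3 libraries lay below all 9 others, where 16.7% of all genes tested did. In 2 members, Mrps5 and Mrps30, they lay above, where 13.7% of all genes did. On plain totals these counts were 34 below (10.03% of all genes) and 3 above (25.9%). The pattern was not particular to the members. All 3 libraries lay below the 9 in 62 of 76 respiratory chain subunits and 48 of 83 cytosolic ribosomal proteins (52 and 15 on plain totals). They lay above in 6 and 3 of these (8 and 10 on plain totals). By subunit, 35 of 51 large and 13 of 26 small subunit members were below (25 and 8 on plain totals), and by descent 31 of 46 bacterial-type and 17 of 31 mitochondrion-specific members (23 and 10). The furthest below the other libraries were Mrpl42, Mrpl33, Mrps33 and Mrpl1. Mrpl1 was at 195, 222 and 176 CPM in untreated dark zone cells, 23.8, 26.4 and 141 after treatment, 254, 132 and 189 in untreated light zone cells and 250.3, 28.1 and 222 after treatment. Mrpl1, a bacterial-type protein of the stalk on the side where transfer RNA leaves, was lower there by a gap of 2.23 on the log2 scale between the highest of the 3 and the lowest of the 9. Since these 3 libraries were chosen because they stood apart, these counts are a description and no test.

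Short members were low in the 3 libraries and most long members were not. Of the 26 members with the shortest coding length (195 to 480 bases), 24 lay below the other 9 libraries in all 3. Of the middle 26 (498 to 753 bases) 20 did, and of the longest 26 (756 to 1326 bases) 5 did. On plain totals these counts were 22, 10 and 2. Among all genes tested, of any length, 16.7% lay below (10.03% on plain totals). Shares for genes of the same length were not taken. Level differed along with length. Members that lay below had a median of 221 CPM in the 9 libraries, those that overlapped 72.5 and those above 16.8. Whether these counts go with length or with level was not tested. Mrps5 (1296 bases) and Mrps30 (1326 bases), the 2 members above, are among the longest. Mrps5 was at 17.6, 7.39 and 12.99 CPM in untreated dark zone cells, 39.3, 44.4 and 8.77 after treatment, 0.0654, 3.79 and 3.66 in untreated light zone cells and 6.73, 44.1 and 9.65 after treatment. Mrps5, a bacterial-type small subunit protein, was at 39.3 to 44.4 CPM in the 3 libraries and at 0.0654 to 17.6 in the 9, and its lowest value was a single count. Mrps30 was at 8.57, 17.7 and 50.5 CPM in untreated dark zone cells, 53.7, 80.9 and 8.65 after treatment, 33.5, 26.2 and 28.7 in untreated light zone cells and 44.5, 56.3 and 3.61 after treatment. Mrps30 lay above the 9 by a narrow margin, at 53.7 to 80.9 CPM in the 3 against at most 50.5, and its exons share bases with B430218F22Rik.

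Treated libraries were then set against the mean of the controls of their zone, in log2 CPM. The median member was at -1.24 and -1.19 in dark zone treated replicates 1 and 2 and at -1.51 in light zone treated replicate 2. It was at -0.24 in dark zone treated replicate 3 and at -0.02 and -0.16 in light zone treated replicates 1 and 3. The median of all genes was at 0.36 to 0.49 in the 3 libraries and at -0.03 to 0.03 in the other 3 treated libraries. Control libraries, each against the other controls of its zone, had member medians from -0.31 to 0.38, so the medians of the 3 treated libraries that did not stand apart lay within the range of single controls.

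**Figure D2:**
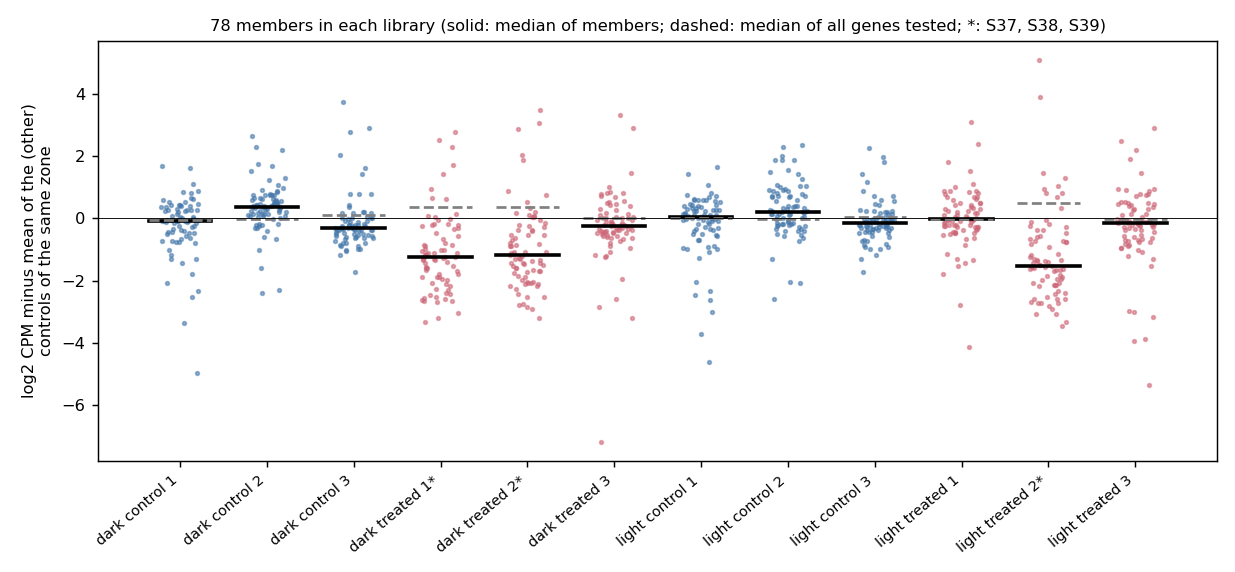
Each dot is 1 of the 78 members in 1 library, as log2 CPM minus the mean of the controls of the same zone (for a control, the other controls). Solid bars are member medians and dashed bars the medians of all genes tested. The starred libraries S38, S39 and S37 have member medians of -1.24, -1.19 and -1.51, and the other 9 lie between -0.31 and 0.38.

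The size of the difference followed coding length in the 3 libraries. Across the 78 members, Spearman's rho between coding length and the difference from the controls was 0.61, 0.69 and 0.62 in the libraries S38, S39 and S37. It was 0.12, 0.27 and 0.04 in dark zone treated replicate 3 and light zone treated replicates 1 and 3. Single controls, each against the other controls of its zone, had rho from -0.29 to 0.35, a range that held the latter 3 values. Over 11263 genes with a length, the same rho was 0.22, 0.17 and 0.20 in the 3 libraries. The level in the controls of the other zone gave rho of -0.69, -0.77 and -0.73 over members in the 3 libraries, and -0.53, -0.51 and -0.56 over all genes. Length and level are themselves correlated among members, so their parts cannot be told apart here. The genes of one library share its depth and its amplification, and these correlations are descriptions.

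**Figure D3:**
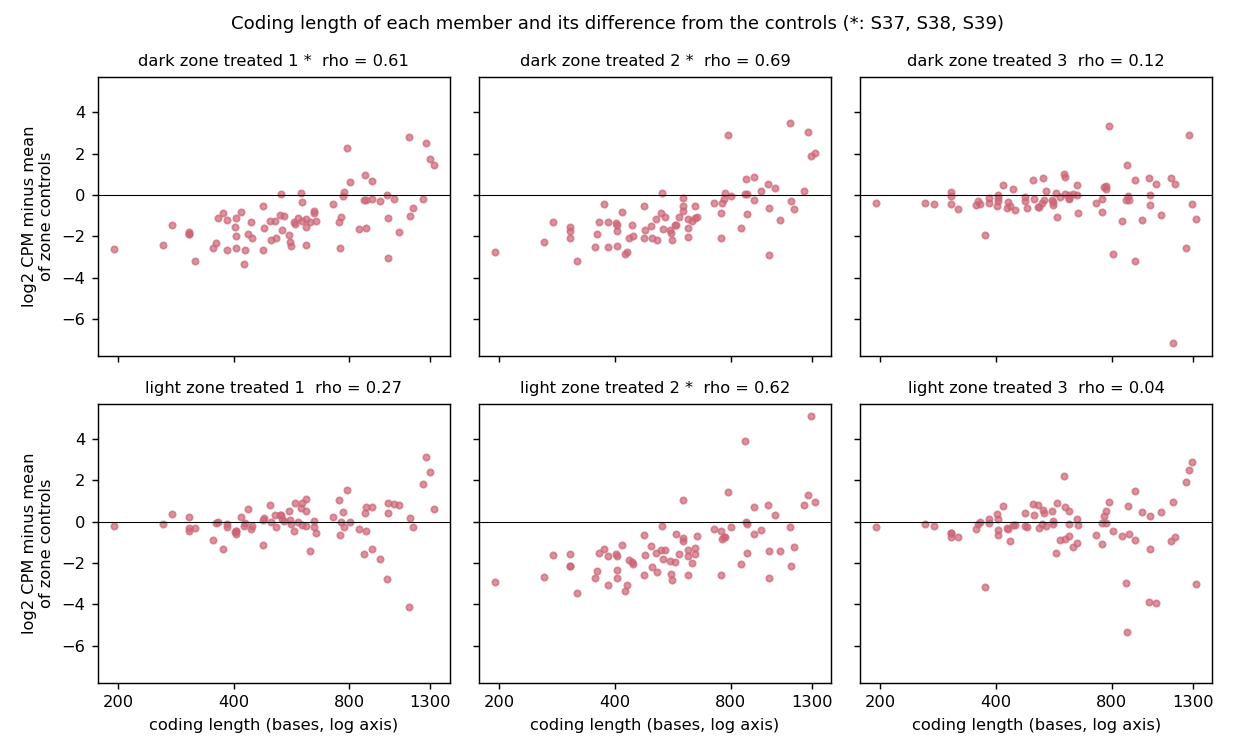
Each panel is 1 treated library and each point 1 member, with coding length in bases on a log axis and log2 CPM minus the mean of the zone's controls. In the starred panels short members lie lowest (rho 0.61, 0.69 and 0.62), and in the others rho is 0.04 to 0.27, within the range of -0.29 to 0.35 of single controls.

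The comparison of treatment with control in the dark zone asks how members differed in dividing cells under blocked T cell help. By the sign of the fitted difference, 13 higher and 65 lower members were found, with a median of -0.83 (log2, treated minus control). Among all 12081 genes tested 52.2% were higher and 47.8% lower, and the median was 0.06. By edgeR 0 members passed the adjusted threshold of 0.05, as did 0.0% of all genes; 0 higher and 11 lower members had an unadjusted p under 0.05, where 4.87% and 4.03% of all genes did. DESeq2 called 0 members, and 0.596% of all genes. The 3 treated libraries lay below the 3 controls in 29 members (11.2% of all genes) and above in 2, Mrpl10 and Mrpl37 (12.5%). On plain totals they lay below in 26 (7.96% of all genes) and above in 5 (17.4%). On plain totals the split was 24 higher and 54 lower with a median of -0.46, and the median of all genes moved from 0.06 to 0.51. With 9 libraries, where 1 dark zone treated library was left and was taken to vary like the other groups, the split was 25 higher and 53 lower and the median -0.27 (all genes -0.11). That library alone lay below the 3 controls in 35 members, where 24.4% of all genes did, and above them in 10 (26.2%).

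The members with the smallest p in the dark zone were Mrpl46, Mrpl11 and Mrpl47. Mrpl46 was at 145, 287 and 202 CPM in untreated dark zone cells, 64.01, 67.7 and 86.1 after treatment, 311, 416 and 184 in untreated light zone cells and 224, 68.5 and 177 after treatment. Mrpl46, a mitochondrion-specific large subunit protein, had a log2 difference of -1.54 (SE 0.48, unadjusted p = 0.00842, adjusted p = 0.528) by edgeR, and all 3 treated libraries were below the dark zone controls. Mrpl11 was at 158, 204 and 141 CPM in untreated dark zone cells, 62.8, 59.7 and 78.1 after treatment, 78.95, 74.4 and 141 in untreated light zone cells and 174, 61.5 and 176 after treatment. Mrpl11, which forms the base of the stalk that recruits translation factors, differed by -1.33 (SE 0.44, unadjusted p = 0.012, adjusted p = 0.528). Mrpl47 was at 105, 132 and 137 CPM in untreated dark zone cells, 21.3, 28.97 and 71.2 after treatment, 152, 148 and 133 in untreated light zone cells and 91.9, 23.7 and 67.7 after treatment. Mrpl47, a bacterial-type protein near the polypeptide exit, differed by -1.63 (SE 0.55, unadjusted p = 0.0136, adjusted p = 0.528), and its exons share bases with Actl6a and Ndufb5. In these 3 members dark zone treated replicate 3 also lay below the dark zone controls, with differences in the 9 libraries of -1.28, -1.09 and -0.80.

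The members with higher values and the smallest p were Mrpl10, Mrpl37 and Mrpl38, none of which passed the test. Mrpl10 was at 1.37, 40.4 and 52.1 CPM in untreated dark zone cells, 71.2, 108 and 146 after treatment, 9.29, 40.98 and 53.3 in untreated light zone cells and 78.6, 74.8 and 52.6 after treatment. Mrpl10, the stalk protein that carries Mrpl12, differed by 1.79 (SE 0.98, unadjusted p = 0.0968, adjusted p = 0.529), and dark zone control replicate 1 was far below the other 11 libraries. Mrpl37 was at 6.72, 4.50 and 74.7 CPM in untreated dark zone cells, 75.7, 110.5 and 100.2 after treatment, 7.39, 86.5 and 42.3 in untreated light zone cells and 261, 74.7 and 169 after treatment. Mrpl37, a mitochondrion-specific large subunit protein, differed by 1.74 (SE 1.08, unadjusted p = 0.137, adjusted p = 0.555), with 2 dark zone controls and light zone control replicate 1 under 10 CPM.

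In the light zone the median of the same comparison was nearer 0. By sign 18 higher and 60 lower members were found, with a median of -0.39, while 54.1% of all genes were higher, 45.9% were lower and their median was 0.10. By edgeR 0 members (0.0% of all genes) passed; 2 higher and 4 lower members had an unadjusted p under 0.05, where 5.83% and 1.53% of all genes did. DESeq2 called 0 members and 1.79% of all genes. The treated libraries lay below the controls in 14 members (5.49% of all genes) and above in 2 (5.82%), and on plain totals below in 13 (4.01%) and above in 5 (7.79%). On plain totals the split was 23 higher and 55 lower, the median -0.25 and that of all genes 0.39. With 9 libraries the split was 30 higher and 48 lower and the median -0.12 (all genes -0.04). Light zone treated replicates 1 and 3 both lay below the 3 controls in 17 members (11.9% of all genes) and above in 11 (11.0%).

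Mrpl48, Mrps26, Mrps6, Mrps5 and Mrps11 had the smallest p in the light zone, with Mrps27 next among those with higher values. Mrpl48 was at 101, 141 and 81.2 CPM in untreated dark zone cells, 42.3, 43.6 and 109 after treatment, 197, 149.7 and 139.7 in untreated light zone cells and 59.96, 40.4 and 68.9 after treatment. Mrpl48, a mitochondrion-specific large subunit protein whose exons share bases with Rab6a, differed by -1.52 (SE 0.44, unadjusted p = 0.00577, adjusted p = 0.674), and in the 9 libraries by -1.32. All 3 light zone treated libraries, 2 of them outside the 3 that stood apart, lay below the light zone controls. Mrps26 was at 84.3, 125 and 104 CPM in untreated dark zone cells, 110.0, 94.1 and 208 after treatment, 68.7, 36.4 and 46.4 in untreated light zone cells and 78.03, 100.2 and 226 after treatment. Mrps26, a mitochondrion-specific small subunit protein, had higher values in each treated library than in each light zone control, with a difference of 1.41 (SE 0.49, unadjusted p = 0.0146, adjusted p = 0.674). Its value in the 9 libraries was 1.60, so it did not rest on light zone treated replicate 2.

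Mrps6 was at 57.7, 26.8 and 11.99 CPM in untreated dark zone cells, 14.5, 19.9 and 6.89 after treatment, 35.8, 84.9 and 53.6 in untreated light zone cells and 21.5, 21.6 and 5.99 after treatment. Mrps6, a bacterial-type small subunit protein whose exons share bases with Slc5a3 and Gm49711, differed by -1.83 (SE 0.75, unadjusted p = 0.033, adjusted p = 0.674) in the light zone. Mrps5 differed there by 3.01 (SE 1.26, unadjusted p = 0.0366, adjusted p = 0.674), from controls of 0.0654 to 3.79 CPM, and by 1.72 in the 9 libraries. Mrps11 was at 210.1, 169.9 and 175 CPM in untreated dark zone cells, 74.2, 67.6 and 198 after treatment, 228, 275 and 187 in untreated light zone cells and 168, 58.5 and 78.6 after treatment. Mrps11, the head-to-head neighbour of Mrpl46, differed by -1.18 (SE 0.50, unadjusted p = 0.0385, adjusted p = 0.674) in the light zone and by -0.71 (SE 0.49) in the dark zone. Mrps27 was at 39.1, 35.4 and 20.5 CPM in untreated dark zone cells, 26.5, 35.1 and 5.05 after treatment, 13.9, 30.1 and 11.2 in untreated light zone cells and 59.02, 29.5 and 63.2 after treatment. Mrps27, an RNA-binding small subunit protein with pentatricopeptide repeats, was highest in light zone treated replicates 1 and 3.

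**Figure D4:**
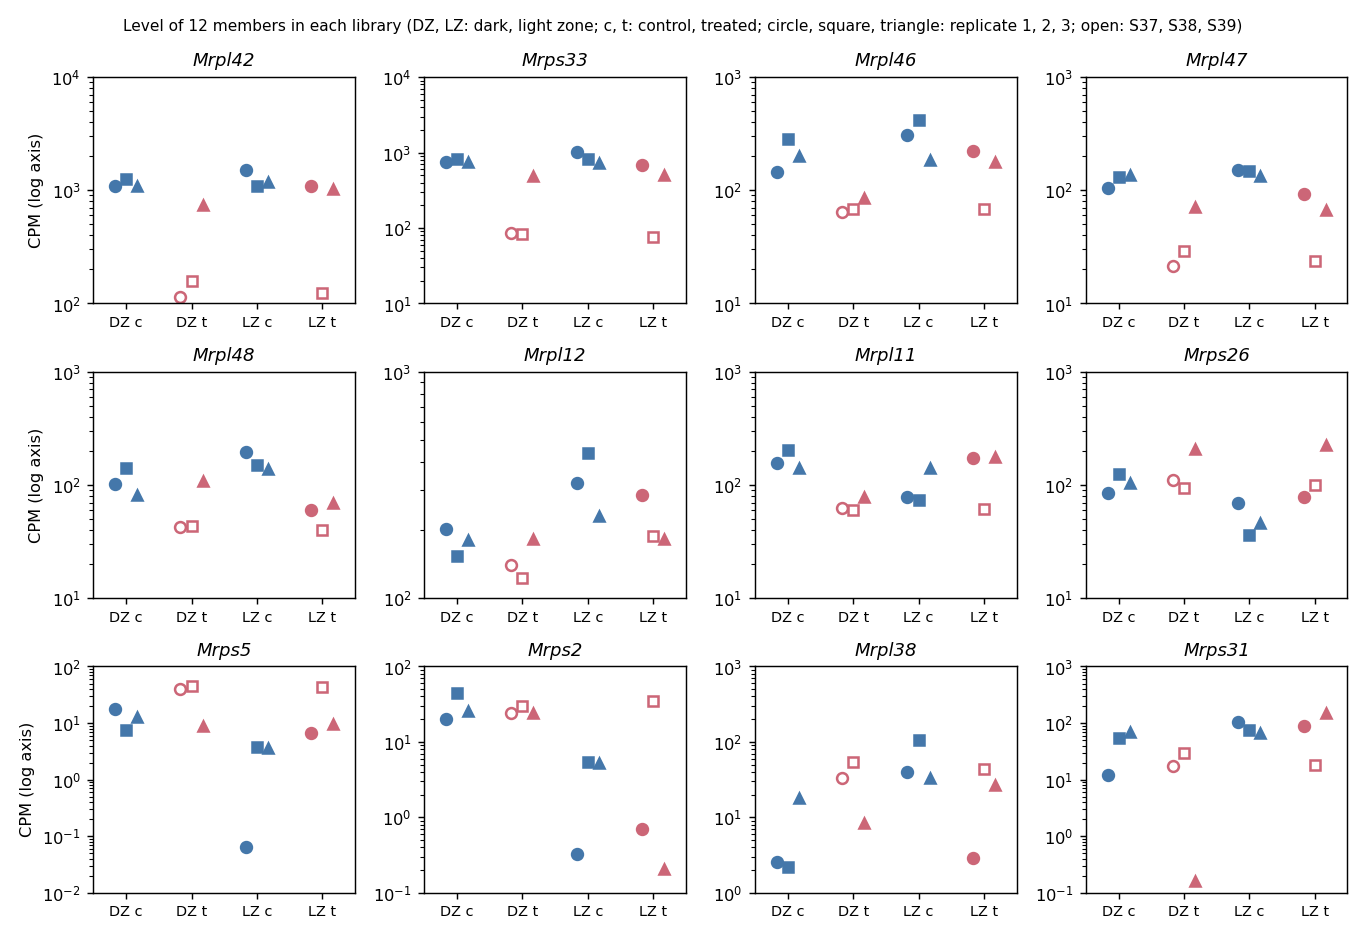
Levels of 12 members in each library, in CPM on a log axis, by zone (DZ, LZ) and treatment (c, control; t, treated); open points are S37, S38 and S39. Mrpl42 and Mrps33 are low in the 3 open points, Mrpl48 is low in all light zone treated libraries, and Mrps5, Mrps2 and Mrps31 each lie below 1 CPM in at least 1 library.

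Averaged over both zones, 11 higher and 67 lower members were found by sign, with a median of -0.59, against 53.9% of all genes higher, 46.1% lower and a median of 0.11. On plain totals the split was 19 higher and 59 lower, the median -0.35 and that of all genes 0.49, and with 9 libraries 23 higher and 55 lower, -0.22 and -0.11. By edgeR 0 members (0.0% of all genes) passed, the smallest adjusted p among members being 0.222. At an unadjusted p under 0.05 stood 3 higher members (10.8% of all genes) and 17 lower ones (5.88%). DESeq2 called 4 members lower, Mrpl46 (log2 difference -1.27, adjusted p = 0.0172), Mrpl47 (-1.46, adjusted p = 0.014), Mrpl48 (-1.16, adjusted p = 0.0175) and Mrps6 (-1.56, adjusted p = 0.0405). It called 6.17% of all genes, close to the 4 of 78 among members. By edgeR the same members differed by -1.25 (SE 0.34), -1.43 (SE 0.39), -1.13 (SE 0.31) and -1.53 (SE 0.52). In the 9 libraries these values were -0.93, -0.82, -0.65 and -2.14. Mrpl37, Mrps26 and Mrps5 were the 3 with higher values, at 1.81 (SE 0.76), 0.90 (SE 0.34) and 2.14 (SE 0.86). On mm10, Mrpl46 lies on chromosome 7, 78775236 to 78783531, a span that passes the RefSeq start of its neighbour Mrps11 (78783131). Whether reads of the 2 genes mix there was not tested. Mrpl47 lies on chromosome 3, 32725397 to 32737605, Mrpl48 on chromosome 7, 100545751 to 100608301 and Mrps6 on chromosome 16, 92058270 to 92112227.

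The treatment difference itself was compared between the zones, as light zone minus dark zone. It was above 0 in 61 and below 0 in 17 members, with a median of 0.49 against 0.15 for all genes, of which 55.5% were above and 44.5% below 0. By edgeR 0 members (0.0% of all genes) passed, 1 above 0 (1.47% of all genes) and 0 below 0 (0.811%) had an unadjusted p under 0.05, and DESeq2 called 0 members (0.132% of all genes). On plain totals it was above 0 in 49 and below 0 in 29 members, with a median of 0.25 against -0.01 for all genes. The groups hold 2 of the 3 libraries in the dark zone and 1 in the light zone, and with a term for these libraries the median was -0.04. Mrpl11 had the smallest p, at 1.81 (SE 0.62, unadjusted p = 0.0137, adjusted p = 1). Its dark zone values were 59.7 to 78.1 CPM with and 141 to 204 without treatment, and it was at 174 and 176 CPM in light zone treated replicates 1 and 3, against 74.4 to 141 in the light zone controls. In the 9 libraries this difference was 1.94. Mrpl38, a mitochondrion-specific large subunit protein, stood at the other end at -3.35 (SE 1.59, unadjusted p = 0.0596, adjusted p = 1). Mrpl38 was at 2.54, 2.23 and 18.3 CPM in untreated dark zone cells, 33.3, 53.5 and 8.49 after treatment, 39.97, 107 and 33.3 in untreated light zone cells and 2.92, 43.3 and 26.8 after treatment. The values of Mrpl38 ranged widely within each group, such as 2.23 to 18.3 CPM among dark zone controls.

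Without treatment, light zone libraries were set against dark zone libraries; none of the 3 libraries that stood apart enters these groups. By sign 47 higher and 31 lower members were found in the light zone, with a median of 0.14 against 0.00 for all genes, of which 50.1% were higher and 49.8% lower. By edgeR 0 members (0.0% of all genes) passed. At an unadjusted p under 0.05 stood 3 higher (1.9% of all genes) and 0 lower (3.02%), and DESeq2 called 0 members (0.935% of all genes). The zones did not overlap in 4 members with higher light zone values (4.47% of all genes), Mrpl12, Mrpl24, Mrpl38 and Mrps15, and in 4 with lower ones (5.6%), Mrpl11, Mrps2, Mrps26 and Mrps5. On plain totals the counts were 6 (3.95% of all genes) and 5 (6.49%), all 8 of these members among them, the split by sign was 48 higher and 30 lower and the median 0.10, beside -0.04 for all genes.

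Mrpl12 was at 202, 153 and 181 CPM in untreated dark zone cells, 140.3, 123 and 183 after treatment, 323, 439 and 230.2 in untreated light zone cells and 286, 188 and 182 after treatment. Mrpl12, the protein of the stalk tip that contacts translation factors, differed by 0.89 (SE 0.33, unadjusted p = 0.0225, adjusted p = 1) between the control zones. Mrps15 was at 73.4, 117 and 66.6 CPM in untreated dark zone cells, 92.1, 88.6 and 102 after treatment, 152, 140.0 and 165 in untreated light zone cells and 128, 92.4 and 148 after treatment. Mrps15, a bacterial-type small subunit protein, differed by 0.83 (SE 0.32, unadjusted p = 0.0251, adjusted p = 1), and it had one of the smallest spreads of all members, with an SD of log2 CPM of 0.43 over 12 libraries. Mrps2 was at 19.9, 44.99 and 25.9 CPM in untreated dark zone cells, 24.4, 29.5 and 24.5 after treatment, 0.327, 5.39 and 5.28 in untreated light zone cells and 0.702, 34.3 and 0.206 after treatment. Mrps2, a bacterial-type small subunit protein, was at 0.327 to 5.39 CPM in light zone controls and at 19.9 to 45.0 in dark zone controls, a difference of -3.04 (SE 1.58, unadjusted p = 0.0818, adjusted p = 1). In light zone treated libraries it was at 0.702 and 0.206 CPM in replicates 1 and 3 and at 34.3 in replicate 2. Mrps26 and Mrps5 differed between the control zones by -1.05 (SE 0.48) and -2.33 (SE 1.22), each with an unadjusted p above 0.05.

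Between the treated zones 65 higher and 13 lower members were found by sign in the light zone, with a median of 0.59 against 0.05 for all genes, of which 52.6% were higher and 47.4% lower. By edgeR 0 members (0.0% of all genes) passed. At an unadjusted p under 0.05 stood 6 higher (1.46% of all genes) and 0 lower (0.604%), and DESeq2 called 0 members (0.00828% of all genes). With TMM scaling the treated zones separated in 0 members, where 2.24% of all genes separated upwards and 3.55% downwards. On plain totals they separated in 4 members with higher light zone values, Mrpl17, Mrpl46, Mrpl52 and Mrps25 (2.03% of all genes), and in 1 with lower ones, Mrps23 (3.35%). On plain totals the split by sign was 58 higher and 20 lower and the median 0.35, beside -0.13 for all genes. The term for the 3 libraries brought the median to 0.06, and the 9 libraries gave 0.29. Mrps25 was at 131, 71.2 and 52.5 CPM in untreated dark zone cells, 33.3, 35.3 and 51.7 after treatment, 112, 148 and 72.2 in untreated light zone cells and 132, 37.3 and 185 after treatment. Mrps25, a mitochondrion-specific small subunit protein whose exons share bases with Nr2c2, had the smallest p at 1.56 (SE 0.58, unadjusted p = 0.0221, adjusted p = 1). Mrpl17 was at 223, 246 and 201 CPM in untreated dark zone cells, 113, 123 and 169 after treatment, 220.2, 551 and 339 in untreated light zone cells and 435, 135 and 324 after treatment. Mrpl17, a bacterial-type large subunit protein, differed by 1.14 (SE 0.46, unadjusted p = 0.0297, adjusted p = 1) and Mrpl11 by 1.04 (SE 0.44). The lower members with the smallest p were Mrpl44, Mrps2 and Mrpl10, at -1.84 (SE 1.23), -1.15 (SE 1.48) and -0.66 (SE 0.96).

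**Figure D5:**
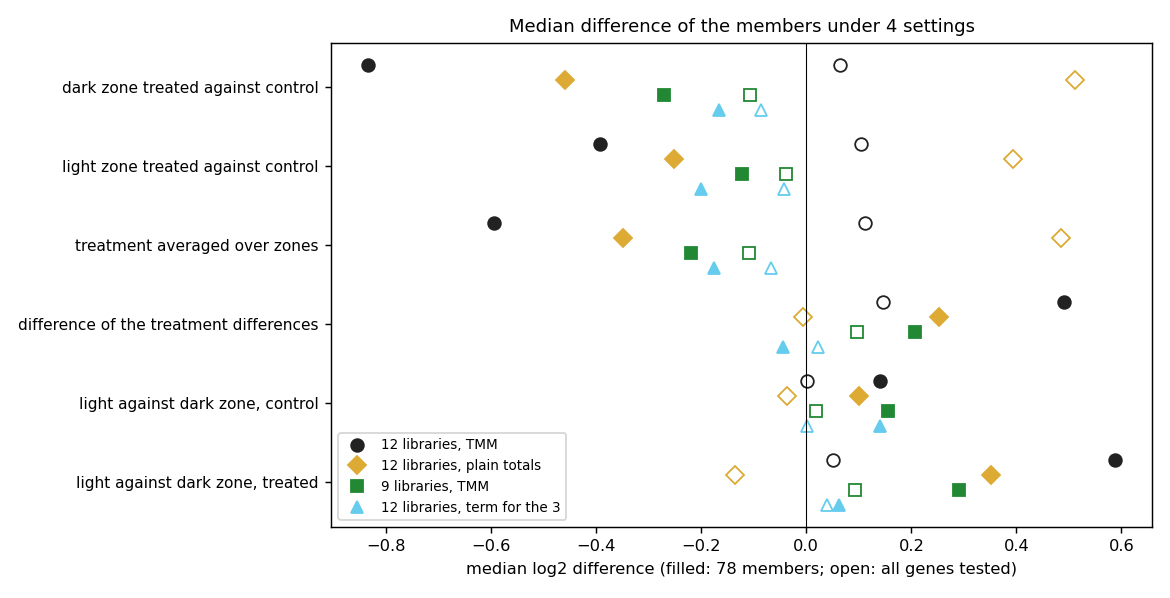
Median log2 difference of the 78 members (filled) and of all genes tested (open) in each of the 6 comparisons, under 4 settings. In the dark zone the member median is -0.83 with 12 libraries and -0.27 with 9, and the open points move right on plain totals in the treatment comparisons.

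Members with a known place in the ribosome were read by their role. At the peptidyl transferase center, Mrpl2 and Mrpl3 were low and variable. Mrpl3 was at 32.9, 124 and 44.98 CPM in untreated dark zone cells, 50.4, 71.03 and 82.1 after treatment, 95.1, 14.9 and 84.6 in untreated light zone cells and 88.3, 62.7 and 3.15 after treatment. Mrpl2 was at 29.2, 48.8 and 43.1 CPM in untreated dark zone cells, 62.2, 72.4 and 4.21 after treatment, 22.1, 66.2 and 44.01 in untreated light zone cells and 16.3, 65.4 and 21.7 after treatment. Mrpl2 was at 62.2 to 72.4 CPM in the 3 libraries that stood apart and at most 66.2 in the 9, and Mrpl3 was at 3.15 CPM in light zone treated replicate 3. Mrps12 was at 149, 113 and 62.9 CPM in untreated dark zone cells, 56.99, 57.3 and 141 after treatment, 139.8, 171 and 68.5 in untreated light zone cells and 138, 53.9 and 197 after treatment. Mrps12, which sits at the decoding center and helps to check the pairing of codon and anticodon, had dark zone treated replicate 3 inside the range of the dark zone controls. The rescue factor Mrpl58, which releases peptides from stalled ribosomes, was at 109, 95.7 and 70.4 CPM in untreated dark zone cells, 40.02, 40.03 and 90.2 after treatment, 132, 85.6 and 89.6 in untreated light zone cells and 142, 31.3 and 91.6 after treatment. Outside the 3 libraries, Mrpl58 stayed between 70.4 and 142 CPM.

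The 3 genes of the Mrps18 family differed in level and behaviour. Mrps18c is the bacterial-type protein of the small subunit, Mrps18b its small subunit relative and Mrps18a its relative in the large subunit. Mrps18c was at 249, 303 and 214 CPM in untreated dark zone cells, 39.8, 37.3 and 199 after treatment, 227, 179 and 202 in untreated light zone cells and 194, 24.2 and 159 after treatment. Mrps18b was at 18.8, 31.2 and 15.8 CPM in untreated dark zone cells, 10.1, 16.2 and 27.8 after treatment, 18.3, 35.5 and 25.1 in untreated light zone cells and 25.4, 14.2 and 31.1 after treatment. Mrps18a was at 163, 332 and 151 CPM in untreated dark zone cells, 93.3, 95.1 and 189 after treatment, 166, 408 and 137 in untreated light zone cells and 209, 71.03 and 115 after treatment. Per kilobase of coding length the means were 394, 29.5 and 302 CPM for Mrps18c, Mrps18b and Mrps18a. The 3 libraries lay below the other 9 in Mrps18c and Mrps18a, and overlapped with them in Mrps18b.

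Mrps22 and Mrps34 are mitochondrion-specific small subunit proteins whose human counterparts are mutated in mitochondrial disease. Mrps22 was at 93.97, 65.8 and 79.2 CPM in untreated dark zone cells, 22.6, 34.2 and 40.5 after treatment, 97.9, 32.7 and 66.1 in untreated light zone cells and 106, 22.2 and 81.7 after treatment. Mrps34 was at 181, 209 and 85.2 CPM in untreated dark zone cells, 61.8, 70.1 and 80.4 after treatment, 75.7, 227 and 87.7 in untreated light zone cells and 79.4, 70.1 and 103 after treatment. In the dark zone their differences by edgeR were -1.30 (SE 0.58, unadjusted p = 0.0494, adjusted p = 0.528) and -1.16 (SE 0.48, unadjusted p = 0.0346, adjusted p = 0.528). With TMM scaling treated and control libraries did not overlap in either member. On plain totals they overlapped in Mrps34, at 75.7 to 94.7 CPM in treated and 84.2 to 170.0 in control libraries, and not in Mrps22. Mrps36, the subunit of the alpha-ketoglutarate dehydrogenase complex, was lower in each of the 3 libraries, the lowest being at 53.7 CPM, than in the 9, which were at 149 to 268 CPM. Mrpl44, which has a ribonuclease III fold, was at 2.87, 35.7 and 1.29 CPM in light zone treated libraries and at 7.13, 77.2 and 72.1 in dark zone controls, with values under 10 CPM in 4 of the 12 libraries.

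Members also differed in how steady they were. The largest SD of log2 CPM over the 12 libraries were those of Mrps2 (2.64), Mrps31 (2.47) and Mrps5 (2.22), and the smallest those of Mrps7 (0.41), Mrpl4 (0.42) and Mrps15 (0.43). Mrps31 was at 12.1, 54.2 and 69.8 CPM in untreated dark zone cells, 17.6, 29.6 and 0.160 after treatment, 102, 74.1 and 67.1 in untreated light zone cells and 90.1, 17.9 and 154 after treatment. Mrps31 was at 0.160 CPM in dark zone treated replicate 3, where all other libraries held at least 12.1. Mrps7 was at 182, 228 and 171 CPM in untreated dark zone cells, 139.9, 149 and 147 after treatment, 126, 317 and 221 in untreated light zone cells and 240.4, 161 and 132 after treatment. Mrps7, a bacterial-type small subunit protein whose exons share bases with Gga3 and Mif4gd, overlapped between the 3 libraries and the 9. Among the 9 libraries, the number of members under 10 CPM ran from 0 to 8, and in the 3 libraries it was 0. The lowest member in a library was at 10.1 to 16.2 CPM in the 3 and at 0.0654 to 11.99 CPM in the 9. The 3 libraries therefore held no member near 0, while 8 of the 9 other libraries had members under 10 CPM. Of all 12212 symbols, 12188 to 12195 had counts in the 3 libraries and 11384 to 11960 in the 9. Fewer genes at 0 was thus a trait of these whole libraries, not of the members alone.

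Members were more alike across all 12 libraries than across the 9. Over 12 libraries the median pairwise Pearson r of log2 CPM between members was 0.47 (0.58 within the large subunit and 0.28 within the small subunit). Over the 9 libraries it was 0.15, 0.16 and 0.12. Cytosolic ribosomal proteins had 0.81 over 12 and 0.70 over 9 libraries, and respiratory chain subunits 0.91 and 0.30. These are descriptions over genes that share the same libraries.

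Other gene groups of mitochondrial translation were set beside the members, from lists made by name. Subunits of the mitochondrial ribosome under other names (Dap3, Ptcd3, Chchd1, Aurkaip1 and Gadd45gip1) had 1 higher and 4 lower in the dark zone (median -0.92) and 1 higher and 4 lower in the light zone (-0.19). Factors that assemble the ribosome had 17 higher and 12 lower (median 0.17) and 18 higher and 11 lower (0.67). The translation factors, a list that also holds Slirp and Lrpprc, had 5 higher and 11 lower (median -0.26) and 11 higher and 5 lower (0.25). Mitochondrial aminoacyl-tRNA synthetases charge transfer RNAs. Their list, which also holds Qrsl1 and Gatc and is called synthetases below, had 13 higher and 8 lower (median 0.36) and 17 higher and 4 lower (0.65). Genes of mitochondrial transcription and RNA processing had 9 higher and 10 lower (median -0.05) and 14 higher and 5 lower (0.29). On plain totals the dark zone medians of the translation factors and of the transcription and RNA processing genes were above 0, at 0.20 and 0.20, and the other lists kept the sign of their medians in both zones. No gene of these lists passed the test by edgeR. Among all genes tested 52.2% were higher in the dark zone and 54.1% in the light zone. Levels differed within and between the lists, such as Sars2 at 1.84 CPM and Tmem223 at 246 in dark zone controls. Over all genes the difference fell with level in the controls of the other zone (rho -0.53, -0.51 and -0.56 in S38, S39 and S37). The part of level in the medians of the lists was not tested. The members, with medians of -0.83 and -0.39, were nearer to the respiratory chain subunits (-1.13 and -0.53) and the cytosolic ribosomal proteins (-0.65 and -0.53) than to the assembly factors and synthetases.

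With 9 libraries the lists lay closer together. In the dark zone their medians were -0.21 for assembly factors, -0.35 for translation factors, -0.18 for synthetases, -0.30 for the respiratory chain and -0.41 for cytosolic ribosomal proteins, beside -0.27 for the members. Assembly factors and synthetases had medians above 0 in the dark zone with 12 libraries and below 0 with 9. In 6 of 29 assembly factors and 5 of 21 synthetases the 3 libraries lay above all 9 others (13.7% of all genes). They lay below in 3 and 0 (16.7% of all genes).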

How the data were processed

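RNA from germinal center B cells was sequenced in 12 libraries, and the authors deposited unscaled expected counts for each symbol. Per the submitters' processing notes BWA and the mouse genome build mm10 were used; counting program, annotation and gene filter are not given in the sources used. Values lying midway between whole numbers, found in 10 of the 78 members, were rounded up, and blank cells were read as 0. How the midway values arose is unknown, so members with several transcripts may not hold plain counts per gene. The kits do not keep the strand, and exons of 16 members overlap those of another protein-coding gene, whose reads cannot be separated from theirs.

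Differences were tested by edgeR 4.0.16 under R 4.3.3 (quasi-likelihood F test, robust, two-sided) after TMM normalization and filterByExpr (minimum count 10, minimum total 15), which kept 12081 genes and all 78 members. The 12 libraries entered 1 fit with a term per group and no covariate, from which 6 comparisons were taken. Benjamini-Hochberg adjustment ran over every tested gene, with a threshold of 0.05. The standard error (SE) of a log2 difference is its size divided by the square root of F. CPM values use TMM-scaled totals, and log2 CPM a prior count of 2. Alternatives were RLE size factors, plain totals, no filter, DESeq2 1.42.0, 9 libraries without S37, S38 and S39, a term for those 3, a replicate block, each replicate left out, and sums without the 5 highest members. The fitting script was tested on simulated data with 200 changed genes in the dark zone treated group. Those data held no shift of S37, S38 and S39, so the test does not bear on it. Gene lengths and positions are those of GENCODE M21, from the transcript with the longest coding sequence, on the files' build. Promoter windows came from RefSeq on GRCm38.p6. The 9 NRF1 letters replaced a form with 1 more letter that had been counted first and that fewer members, and fewer of all windows, held.

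The members and all gene lists were chosen with earlier results of these data known. Members were named where they had the 5 highest or lowest levels per kilobase, the 3 smallest p in either direction of a comparison, a call by edgeR or DESeq2, a known role, an extreme place in S37, S38 and S39, or an extreme SD. Mrpl20, Mrpl23 and other members outside this rule are given as counts only, apart from those whose groups did not overlap and those named with the 5 highest CPM. The totals of a library and their floor of 3 counts limit the precision, and the floor covers counting error only.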

Additional observations from a re-analysis of the deposited data

How the results depend on the processing

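With 9 libraries the dark zone median of the members was -0.27 and the summed level of dark zone treated libraries 15023 CPM. The term for the 3 libraries gave medians of -0.17 in the dark zone, -0.18 averaged over zones, -0.0448 for the difference of the treatment differences and 0.0614 between the treated zones. DESeq2 called 4 members in the averaged comparison, where edgeR called 0. Plain totals gave a light zone control sum of 16820 CPM. Without the 5 highest members the sums were 13287 CPM in dark zone and 14269 CPM in light zone controls. The replicate numbers were not shown to pair the libraries. Of the 6 same-numbered zone pairs, 3 correlated above 0.1, the highest at 0.539 (treated replicates 2). Dark zone treated replicate 1 and light zone treated replicate 2, of different numbers, correlated at 0.560. Both pairs lie within the 3 libraries that stood apart, so the check could not decide on pairing. With the replicate block the medians were -0.89 in the dark zone, -0.48 in the light zone, -0.70 averaged, 0.41 for the difference, 0.13 between control zones and 0.51 between treated zones, and 0 members were called. Leaving out each replicate in turn gave medians from -1.29 to -0.64 in the dark zone, -0.68 to -0.13 in the light zone, -0.80 to -0.48 averaged, 0.26 to 1.01 for the difference, -0.00 to 0.25 between control zones and 0.30 to 1.11 between treated zones, with 0 members called each time. The dark zone extreme of -1.29, and those of 1.01 and 1.11, came without dark zone treated replicate 3, and the light zone value of -0.13 without light zone treated replicate 2. The 0.26 of the difference and 0.30 of the treated zones came without light zone treated replicate 1. Between the control zones the median was -0.00 without dark zone control replicate 3. The causes were not tested. RLE size factors and no filter on low counts changed no direction of a median and no count of calls.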

Other observations

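Of the 44 members with a promoter window whose 3 libraries S37, S38 and S39 lay below the other 9, 19 held ETS letters and 9 YY1 letters. Of the 23 with a window whose libraries overlapped, 7 held ETS letters and 3 YY1 letters. NRF1 letters were in 8 of the 44 and 8 of the 23. Neither Mrps5 nor Mrps30, the 2 members above, held any of these letters in its window, and the difference between these shares was not tested.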
